A study of Homo sapiens with 12 samples.

Results

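The replication-dependent histone genes code for the core histones H2A, H2B, H3 and H4 and the linker histone H1, which package newly copied DNA during S phase. Their mRNAs are the textbook exception to polyadenylation. They end in a conserved stem-loop instead of a poly(A) tail, the stem-loop is bound by SLBP, and the transcript is cut just after it with the help of the U7 small nuclear RNA. Some of these genes are also known to give a smaller amount of polyadenylated mRNA. Genes were taken as members when their symbol started with HIST1H, HIST2H, HIST3H or HIST4H, which gave 89 of the 60504 genes in the deposited tables. By class there were 8 H1, 22 H2A, 26 H2B, 17 H3 and 16 H4 genes. By cluster there were 67 HIST1 genes, 17 HIST2, 4 HIST3 and 1 HIST4. Of these, 14 carried a pseudogene symbol.

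All 12 libraries came from T24 cells, a human bladder cancer line in long use. In the knockout comparison there were 2 libraries labelled U11 knockout, from cells edited with CRISPR/Cas9 and a pair of guides against the U11 small nuclear RNA and grown from single cells, and 2 untreated controls. The overexpression comparison held 6 libraries from cells that carried a plasmid with U11, also grown from single cells, and 2 untreated controls. The 6 libraries bore the line labels 79, 86 and 87, with 2 libraries each, and what these labels stand for was not given in the sources used here. Nothing in the labels says that libraries of one group came from separate cultures, so the spread between them may be technical. All 4 libraries of the knockout comparison shared one library code, and the overexpression comparison had a pair of other codes, each with 1 library per line label and 1 control. The labels name poly(A) RNA and the same kit for all 12 libraries, whereas the study's methods describe depletion of ribosomal RNA.

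The values were TPM, a Stringtie estimate of transcript abundance per transcript length, scaled to the same total in every library. The aligned bases behind the tables ranged from 9.07 to 15.33 gigabases. For U11, encoded by RNU11, the entry ENSG00000274978 went against the knockout label. The 2 controls gave 21.4 and 23.8 TPM for it, and the libraries carrying the knockout label gave 31.6 and 37.4 TPM. Limma put the difference at 0.59 on the log2 scale (unadjusted P = 0.00644, adjusted P = 0.0626). Only this entry is given for these libraries. By quantitative PCR, the paper reports significantly less U11 in its knockout line than in wild-type cells. Why the readings differ was not tested. Under the overexpression label, the entry ENSG00000270103 stood at 60.2 and 52.2 TPM for line label 87, at 3.87 and 3.62 for 86 and at 0 and 0.40 for 79, against 0 and 0.62 in the controls. Of 16 urothelial and epithelial markers, 8 reached 1 TPM in some library, among them KRT7 with 1085 to 1308 TPM in the knockout comparison and 3503 to 6703 TPM in the other. KRT5, KRT20, TP63, CDH1 and the uroplakin genes stayed under 1 TPM in all 12. Of 12 markers of blood, endothelial, stromal and muscle cells, 9 stayed under 1 TPM everywhere, and CDH5 ranged from 0.03 to 34.1 TPM.

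The stem-loop was looked for in the 150 bases of hg38 after each annotated stop codon, as GG and 4 more stem bases, a loop of 4 bases starting with TT, and the exact reverse complement of the stem. It was found in 61 of the 66 members with a stop codon in GENCODE release 44, against 10 of 19541 other protein-coding genes (0.0512%). Members were matched by identifier. Histone genes that carry a newer identifier in that release, such as HIST1H3B, can therefore be among the other genes. All 6 H1 genes searched had it, as did 13 of 15 H2A, 17 of 18 H2B, 11 of 12 H3 and 14 of 15 H4 genes. The match was 22 to 62 bases after the stop codon. One example of each of the 5 forms is shown because stem and loop differ between members, with the paired stem in capitals and 5 bases of flank on each side.

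HIST1H1C: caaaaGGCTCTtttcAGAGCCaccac
HIST1H2BK: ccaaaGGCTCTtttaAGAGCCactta
HIST2H2AC: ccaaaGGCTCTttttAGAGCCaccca
HIST1H4J: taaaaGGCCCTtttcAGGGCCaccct
HIST1H4K: caaaaGGCCCTttttAGGGCCcccac

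These lie in hg38 at chr6:26055739-26055764 on the minus strand (HIST1H1C), chr6:27146361-27146386 on the minus strand (HIST1H2BK), chr1:149887386-149887411 on the plus strand (HIST2H2AC), chr6:27824454-27824479 on the plus strand (HIST1H4J) and chr6:27831173-27831198 on the minus strand (HIST1H4K), all after the stop codon in the last part of the transcript. The stem GGCCCT was found in all 14 H4 genes with a match and in no other class. The stem GGCTCT was found in the other 47 genes. The form with the TTTC loop was the most frequent, with 36 genes for GGCTCT and 10 for GGCCCT. The TTTA loop occurred in 10 genes, among them HIST1H2BK, HIST1H2BJ and HIST1H2BD.

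Promoters were taken from RefSeq (GRCh38.p14, 250 bases before to 50 after the start) and matched for 61 members. TATAAA, the TATA box, was found on either strand in 42 of them (68.9%), against 14.0% of 27305 genes. CCAAT was found in 51 (83.6%), against 39.7% of all genes. All promoters of H1, H2A, H2B and H3 genes that were matched held CCAAT, and 3 of 13 H4 promoters did. ATTTGCAT, the octamer bound by POU2F1, was found in 21 (34.4%), against 2.19% of all genes. It was found in 11 of 16 H2A and 9 of 13 H2B promoters, in 1 of 13 H3 and in none of the H1 and H4 promoters. The windows of back-to-back H2A and H2B genes can overlap, so the same match can be counted for both classes. HIST1H2AG, HIST1H2AJ and HIST2H2AC, for example, held no octamer in the 120 bases before the start. In HIST1H3D, the H3 match, the octamer lay in a stretch shared with HIST1H2AD. The 120 bases before its other start held none. The matches do not overlap each other in the stretches shown. The 120 bases before the start are shown for an H2B, an H3 and an H4 gene that were each the highest of their class in the knockout comparison, with the motifs in capitals on either strand.

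HIST1H2BK: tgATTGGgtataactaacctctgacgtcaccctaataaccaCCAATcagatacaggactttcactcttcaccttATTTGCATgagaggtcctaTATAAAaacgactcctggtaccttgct
HIST1H3B: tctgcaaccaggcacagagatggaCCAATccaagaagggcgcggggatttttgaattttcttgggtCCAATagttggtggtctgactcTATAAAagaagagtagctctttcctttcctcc
HIST1H4K: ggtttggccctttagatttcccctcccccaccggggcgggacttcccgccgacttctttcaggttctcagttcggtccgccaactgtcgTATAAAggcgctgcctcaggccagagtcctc

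The stretches lie at chr6:27146859-27146978 (HIST1H2BK), chr6:26032100-26032219 (HIST1H3B) and chr6:27831561-27831680 (HIST1H4K), all on the minus strand. A match to these letters is a description and does not show that a factor binds there.

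In the untreated controls, the histone genes held 3.29% of all TPM in the knockout comparison and 0.0147% in the overexpression comparison. Their sum was 34278.5 and 31589.2 TPM in the controls of the knockout comparison and 145.9 and 147.8 TPM in those of the overexpression comparison, a ratio of 224. The ratio differed by class, with 617 for H3, 413 for H1, 325 for H4, 244 for H2A and 99.0 for H2B. By cluster it was 654 for HIST4, 270 for HIST1, 157 for HIST2 and 7.64 for HIST3. H2B genes accordingly made up 20.1% of the histone sum in the controls of the knockout comparison and 45.6% in those of the overexpression comparison, while H3 genes made up 16.2% and 5.88%. The plot of class sums by library shows a gap between the library sets for each of the 5 classes, of a size that differs by class.

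**Figure D1:**
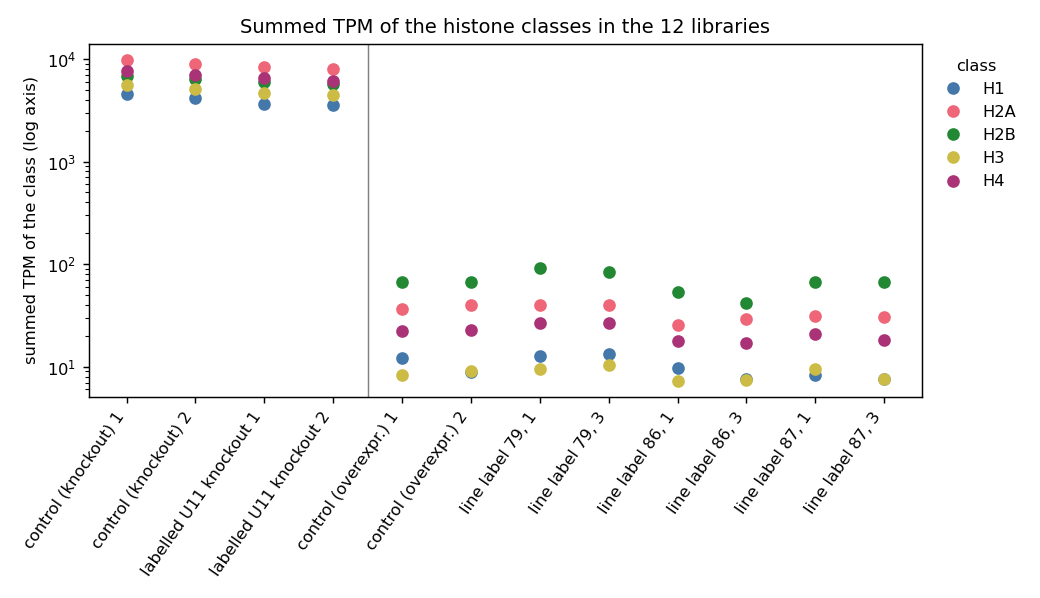
Summed TPM of each histone class (log axis) in each of the 12 libraries, with the 4 libraries of the knockout comparison left of the vertical line and 1 point per class and library. The lowest class sum on the left is 3519 TPM and the highest on the right is 91.4 TPM.

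Of the 89 members, 70 were higher in every library of the knockout comparison than in every library of the overexpression comparison. HIST2H2BC and HIST2H2BD were lower in every one, 18 stayed under 1 TPM in all 12 libraries, and HIST1H2AK and HIST1H2APS1 were listed at 0 throughout. In the knockout comparison 69 members reached 1 TPM in all 4 libraries, 53 reached 100 TPM and 8 reached 1000 TPM. In the overexpression comparison 17 reached 1 TPM in all 8 libraries, and only HIST1H2BK, HIST1H1C and HIST3H2A reached 10 TPM in any.

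The controls were compared with limma on log2(TPM + 1). A gene was tested if at least 2 of the compared libraries reached 1 TPM, and called if the unadjusted P was under 0.05 with a difference of 1.5-fold or more. Of 69 members tested, 65 were higher in the controls of the knockout comparison, against 3.51% of the 14978 genes tested, and 2 were lower, against 70.4%. Most of these members passed the filter only through the libraries in which they were high, so this count had to be large. With at least 1 TPM required in every library, 23 members were tested, 20 of them higher and 2 lower. The median log2 difference of the members was 7.50 and that of all genes was -0.86. Scaling by median ratios brought the median of all genes to -0.08 and that of the members to 8.24, and the calls over all genes moved from 525 higher and 10540 lower to 1413 higher and 1885 lower. The 2 sets of controls differ in library code, and anything that goes with the code, such as date or preparation, cannot be told apart.

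The members with the largest differences stood under 1 TPM in both overexpression controls and so passed the filter only through the knockout controls, and their differences are given as a description without a test. They were HIST1H3B, HIST1H1B, HIST1H2AD, HIST1H2AH, HIST1H3F and HIST1H1E. HIST1H3B, a core H3 gene, stood at 1472 and 1358 TPM in the controls of the knockout comparison and at 0.40 and 0.40 TPM in the other controls. Its log2 difference was 9.98. HIST1H1B, a linker histone gene, stood at 1428 and 1280 TPM against 0.62 and 0.44 TPM. The 6 genes had log2 differences of 9.43 to 9.98, and no library of one control group came near the other.

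A few members kept a level in both sets of controls. HIST1H2BK stood at 1412 and 1370 TPM in the controls of the knockout comparison and at 36.3 and 31.7 TPM in the other controls. It was the 4th highest member in the first and the highest in the second, where it alone held 23.2% of the histone sum. HIST3H2A stood at 53.6 and 46.3 TPM against 8.87 and 11.05 TPM, and its rank was 56 in the first and 2 in the second. HIST1H2AC, an H2A gene whose deposited entry spans 14972 bases, stood at 5.005 and 3.30 TPM against 5.03 and 4.39 TPM, with a log2 difference of -0.17 (limma adjusted P = 0.477). The groups overlapped for HIST1H2AC. HIST2H2BD, annotated in GENCODE as an H2B pseudogene, and HIST2H2BC, whose identifier was not found there, had log2 differences of -0.91 and -0.81 (limma adjusted P = 0.00245 and 0.00386). Neither passed the thresholds with FPKM, median ratio scaling or rescaling to the genes outside the histones, where the difference ran from -0.22 to -0.11 for HIST2H2BD and from -0.10 to 0.016 for HIST2H2BC. Across all 89 members the Spearman correlation of the 2 control means was 0.55, with both axes resting on 2 libraries each.

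**Figure D2:**
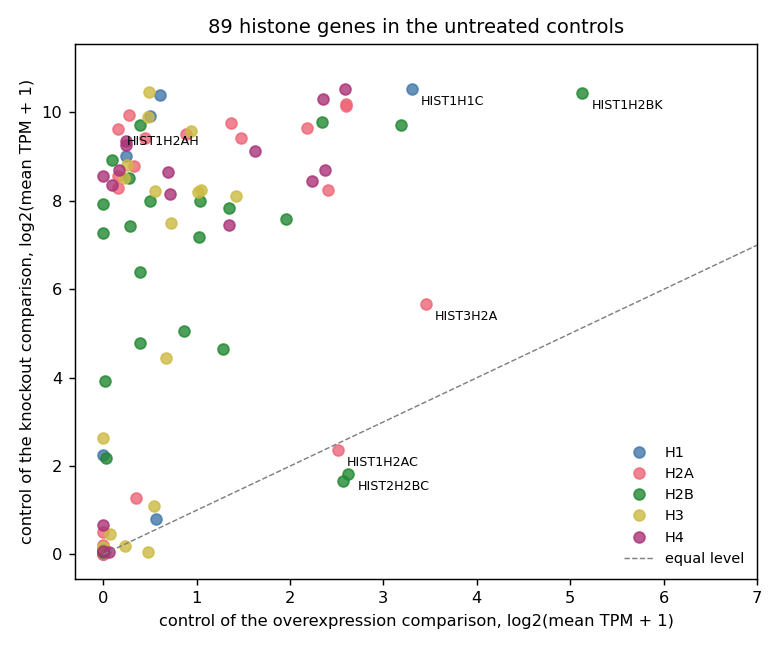
Mean level of each of the 89 histone genes, as log2(mean TPM + 1), in the 2 untreated controls of the overexpression comparison (horizontal) and the 2 of the knockout comparison (vertical), coloured by class, with the dashed line at equal level. Most genes lie far above the line, HIST1H2BK lies farthest right at 34.0 TPM, and HIST1H2AC, with 4.15 and 4.71 TPM, lies close to the line.

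Some H2A and H2B genes start back to back, and the balance within such pairs was read in both sets of controls. HIST1H2AH and HIST1H2BK lie 330 bases apart on chromosome 6. In the controls of the knockout comparison they stood at 793 and 1391 TPM on average, an H2A to H2B ratio of 0.57. In those of the overexpression comparison they stood at 0.12 and 34.0 TPM, a ratio of 0.0034. HIST1H2AG and HIST1H2BJ, 291 bases apart, stood at 304 and 884 TPM and at 4.30 and 4.09 TPM. HIST3H2A and HIST3H2BB, 233 bases apart, stood at 49.95 and 26.4 TPM and at 9.96 and 0.32 TPM. These ratios were not tested.

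The length of the deposited entry went with the level in the overexpression controls. Among the 61 members with a stem-loop, the 37 with an entry under 1000 bases had a median of 517 TPM in the controls of the knockout comparison and 0.21 TPM in the others. The 24 with a longer entry had 248 TPM and 1.06 TPM. Of the longer ones 15 reached a mean of 1 TPM in the overexpression controls, and of the shorter ones 8 did. The entry of HIST1H2BK is short, at 381 bases, and covers the coding sequence alone. Neighbours on chromosome 6 differed widely, as the plot in chromosomal order shows, with HIST1H2AC at 4.15 TPM beside HIST1H2BC at 23.9 TPM and HIST1H2BB at 241.4 TPM. The HIST1H2BB entry spans 80678 bases and overlaps HIST1H2BC on the same strand, so the split of reads between them is uncertain. The stem-loop of HIST1H2BB starts at 26043232 and that of HIST1H2AC at 26124669, so HIST1H2BB is a neighbour only through its long entry.

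**Figure D3:**
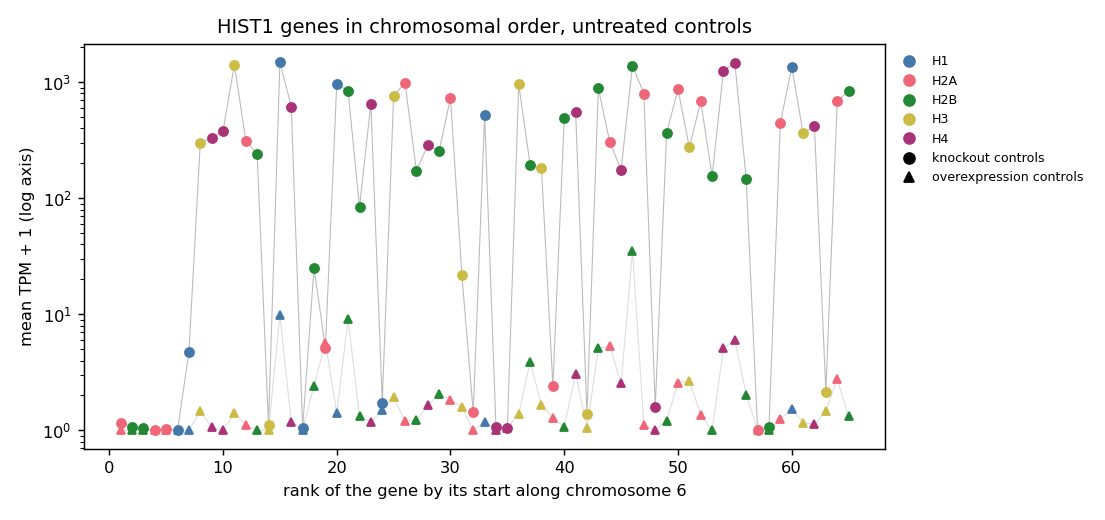
Mean TPM + 1 (log axis) of the 65 members on chromosome 6, ranked by their start, in the untreated controls of the knockout comparison (circles) and of the overexpression comparison (triangles), coloured by class. Most circles lie above 100 TPM, and among the triangles HIST1H2BK, at 34.0 TPM, is the only one above 10 TPM.

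Other RNAs were read in the same fit. Of the list of RNAs without a poly(A) tail, among them RN7SK, RMRP, RPPH1 and SNORD3A, 14 entries were tested and all 14 were higher in the controls of the knockout comparison, against 3.51% of all genes, with a median log2 difference of 8.38. Most of these also passed the filter only through the libraries in which they were high, so this count was largely fixed by the filter. With at least 1 TPM required in every library 2 of them were tested, and both were higher. All 14 housekeeping mRNAs were lower, with a median of -1.30, where 70.4% of all genes were lower and their median was -0.86. With median ratio scaling 5 of the 14 were lower, with a median of -0.42 against -0.08 for all genes. Of the 12 replication-independent histone variants, 1 was higher and 6 were lower, against 3.51% and 70.4% of all genes, with a median of -0.92. With median ratio scaling 2 were higher and 4 lower, with a median of -0.05. H2AFZ had a log2 difference of -1.79 (limma adjusted P = 0.000251), which was -0.88 with median ratio scaling (limma adjusted P = 0.00710). H2AFJ was higher, with 1.22 (limma adjusted P = 0.00350), and 2.11 with median ratio scaling (limma adjusted P = 0.00478). The part of library preparation in the levels of the histone genes was not tested.

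In the libraries labelled U11 knockout, the histone genes summed to 29172.3 and 27661.8 TPM, both below both controls, with means of 28417 ± 1068 TPM (SD, n = 2) against 32934 ± 1902 TPM (SD, n = 2). The ratio was 0.863, or 13.7% lower. All 5 classes moved in the same direction, with ratios of 0.832 for H1, 0.851 for H3, 0.860 for H4, 0.873 for H2A and 0.882 for H2B. By cluster the ratio was 0.849 for HIST1, 0.947 for HIST2, 0.732 for HIST3 and 0.610 for HIST4. The 2 groups overlapped for the HIST2 sum, which was 6171 and 5491 TPM in the controls and 5900 and 5146 TPM under the knockout label. The difference between clusters was not tested.

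Of 70 members tested, 4 were down-regulated under the knockout label and none was up-regulated, where 3.15% and 8.61% of the 14356 genes tested were. The 4 also had an adjusted P under 0.05, as did 2.08% of all genes on the lower side. Without the fold change threshold, limma placed 35 members lower and 3 higher at an unadjusted P under 0.05. The direction was shared more widely than the calls. The median log2 fold change was -0.22 for the members and 0.11 for all genes, and 59 of the 70 members were below 0. For 47 members (67.1%) both libraries labelled U11 knockout lay below both controls, against 20.4% of all genes, and for 8 (11.4%) they lay above, against 39.9%. Over all 89 members, tested or not, these numbers were 48 and 11, and no such share was read for genes that were not tested. The median absolute log2 difference was 0.12 between the 2 controls and 0.09 between the 2 libraries labelled U11 knockout.

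HIST4H4, the only H4 gene on chromosome 12 (from 14767999 to 14771131 on the minus strand), stood at 417 and 389 TPM in the control libraries and at 246.2 and 245.9 TPM under the knockout label. Its log2 fold change was -0.71 (standard error 0.08, limma adjusted P = 0.0192). HIST1H3I, an H3 gene on chromosome 6 (27871905 to 27872315, minus strand), stood at 382 and 344 TPM against 233 and 227 TPM, with a log2 fold change of -0.66 (limma adjusted P = 0.0246). HIST2H3D, an H3 gene on chromosome 1 (149813271 to 149813681, minus strand), stood at 483 and 420 TPM against 297 and 288 TPM, with a log2 fold change of -0.62 (limma adjusted P = 0.0324). The controls and the labelled libraries did not overlap for any of the 3. Without control replicate 1 the log2 fold changes of HIST1H3I and HIST2H3D were -0.58 and -0.52, under the 1.5-fold threshold. HIST2H3D shares 51.3% of its 100-base windows exactly with other members, so its reads could be split between copies.

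HIST1H2BE, an H2B gene on chromosome 6, showed the largest called difference. It stood at 69.7 and 95.7 TPM in the control libraries and at 15.9 and 12.8 TPM under the knockout label, a log2 fold change of -2.44 (standard error 0.19, limma adjusted P = 0.0106). Its deposited entry spans 12597 bases, from 26172059 to 26184655 on the plus strand.

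**Figure D4:**
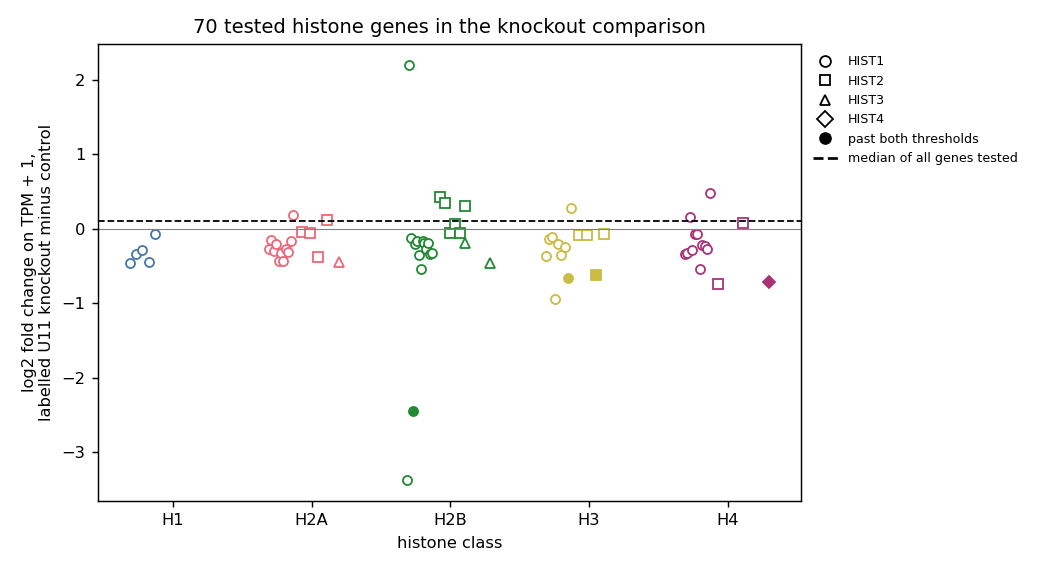
Log2 fold change on TPM + 1 of the 70 tested histone genes, libraries labelled U11 knockout minus controls (n = 2 each), by class, with symbols for the cluster, filled symbols for the 4 genes past both thresholds and a dashed line at the median of all genes tested. Most symbols lie below the dashed line, and HIST1H2BE at -2.44 is the lowest filled one.

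Median ratio scaling moved the median of all genes from 0.11 to -0.02 and the calls over all genes from 1236 higher and 452 lower to 773 higher and 775 lower. The members' median went to -0.37 and 9 members were called lower, with none higher. Relative to all genes, the members' median was -0.33 as deposited and -0.36 after this scaling.

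The class medians ran from -0.33 to -0.19. All 5 tested H1 genes were below 0, with a median of -0.33 and a range of -0.47 to -0.07. HIST1H1C, the highest H1 gene, stood at 1538 and 1424 TPM in the control libraries and at 1219 and 1216 TPM under the knockout label, a log2 fold change of -0.28 (limma adjusted P = 0.0787). The median was -0.27 for H2A, -0.19 for H2B, -0.21 for H3 and -0.25 for H4. The highest H4 gene, HIST1H4K, stood at 1512 and 1428 TPM against 1288 and 1221 TPM, and its entry shares all of its 100-base windows with other members. HIST1H2BK stood at 1412 and 1370 TPM against 1209 and 1220 TPM, and HIST1H3B at 1472 and 1358 TPM against 1310.2 and 1250.3 TPM. Their log2 fold changes were -0.23, -0.20 and -0.14, with limma adjusted P of 0.114, 0.120 and 0.260. Each of these genes was lower in both labelled libraries, and none passed the thresholds.

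HIST1 members had a median log2 fold change of -0.27, with 45 of 50 below 0. HIST2 members had a median of -0.06, with 10 of 16 below 0. The near-identical pair HIST2H2AA3 and HIST2H2AA4, the highest H2A genes, stood at 1222 and 1104 TPM and at 1191 and 1083 TPM in the controls. Under the knockout label HIST2H2AA3 stood at 1158 and 1098 TPM and HIST2H2AA4 at 1121 and 1061 TPM, and the groups overlapped for both. HIST2H3A and HIST2H3C have the same entry sequence and lay within the control range or just below it, at 286 and 269 TPM and at 294 and 277 TPM. In the HIST3 cluster, HIST3H2A stood at 53.6 and 46.3 TPM against 37.3 and 35.7 TPM (log2 fold change -0.44, limma adjusted P = 0.0815) and HIST3H2BB at 27.6 and 25.2 TPM against 18.7 and 19.2 TPM (-0.46, limma adjusted P = 0.0672). HIST3H2BA, a pseudogene, stood at 3.56 and 3.50 TPM against 3.11 and 2.86 TPM, and HIST3H3 stayed under 1 TPM in all 12 libraries.

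Some entries differed widely between replicate libraries. HIST1H2BB gave 249 and 234 TPM in the 2 controls, and 247 and 1.21 TPM under the knockout label. HIST1H2BC, whose entry overlaps the 80678 bases of HIST1H2BB on the same strand, stood at 29.1 and 18.8 TPM in the control libraries and at 29.7 and 409 TPM. In labelled replicate 2 one entry was low and the other high, and their sum was 278 and 253 TPM in the control libraries and 277 and 411 TPM under the label. HIST2H4A and HIST2H4B, a near-identical pair, stood at 427 and 144 TPM and at 380 and 360 TPM under the label, against 449 and 382 TPM and 382 and 320 TPM in the controls. HIST2H2BF stood at 264 and 247 TPM in the control libraries and at 445 and 225 TPM. Of the 89 members, 12 overlap another member on the same strand and 24 share at least 1 window of 100 bases with another, so the level of such a single entry is uncertain.

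Genes that act in making histone mRNAs were read in the same fit. Of 25 tested genes of transcription and 3′ end processing, 1 was up-regulated under the knockout label and none down-regulated, against 8.61% and 3.15% of all genes, with a median log2 fold change of -0.02 against 0.11 for all genes. The one called was ZCCHC6, a terminal uridyltransferase (log2 fold change 1.03, limma adjusted P = 0.0251). Of the 25, 15 were below 0, and 20 with median ratio scaling, where 36.3% and 52.5% of all genes were. SLBP, which binds the stem-loop, stood at 47.6 and 49.7 TPM in the control libraries and at 48.0 and 45.7 TPM (log2 fold change -0.05, limma adjusted P = 0.731). NPAT, the coactivator of histone transcription, had a log2 fold change of -0.02, CASP8AP2 0.67, LSM10 -0.05, LSM11 0.01, ZNF473 0.28 and ERI1, a 3′ exonuclease, -0.09. All 6 had a limma adjusted P above 0.28. RNU7-1, the U7 RNA, stayed under 1 TPM in all 12 libraries and was not tested.

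The other lists were read against the same background, in which 3.15% of all genes were down-regulated and 8.61% up-regulated, 36.3% were below 0 and the median was 0.11. Of 24 tested genes of S phase, 20 were below 0 and 4 were down-regulated, with a median of -0.23. With median ratio scaling 22 were below 0, as were 52.5% of all genes, and 4 were down-regulated. Among them were GINS2 of the replicative helicase with a log2 fold change of -0.67, the licensing factor CDT1 with -0.63 and the nuclease FEN1 with -0.62. The limma adjusted P of these 3 ran from 0.028 to 0.0422. In bulk RNA, fewer cells in S phase and less histone mRNA per cell cannot be told apart. Of 13 histone chaperones, SSRP1 was down-regulated (-0.69, limma adjusted P = 0.0203) and ASF1A passed the unadjusted threshold upwards (0.66, limma adjusted P = 0.0669). Of 12 replication-independent variants, 1 was down-regulated. This was H2AFY2, which codes for macroH2A2, at 13.6 and 12.5 TPM in the control libraries and 0.31 and 0.30 TPM under the label (log2 fold change -3.43, limma adjusted P = 0.00276). With median ratio scaling 3 variants were down-regulated, as were 775 of 14356 genes, and 10 were below 0, against 6 as deposited. Of the RNAs without a poly(A) tail, 1 of 14 was down-regulated, the entry ENSG00000259001 of RPPH1 (-0.74), and the median was -0.07. Of the housekeeping mRNAs, 1 of 14 was up-regulated, B2M (1.06), and the median was 0.04. Of 7 tested urothelial markers, FOXA1 (-0.89) and KRT19 (-0.74) were lower, also by the adjusted P, and GATA3 (0.75) passed only the unadjusted threshold upwards. Of the markers of other cells, 1 was tested, CDH5, and it was lower (-2.49, limma adjusted P = 0.00470).

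Under the overexpression label, no histone gene was called in either direction among 30 tested, where 0.767% of the 15768 genes tested were up-regulated and 1.16% down-regulated. At an unadjusted P under 0.05 without the fold threshold, limma gave 1 member. This fit took the 6 libraries as separate, although each line label held 2 of them. With the mean of each line label instead, 0 of 27 members were called, against 126 higher and 176 lower of 15247 genes. The sum was 103.4 to 179.8 TPM in the 6 libraries and 145.9 and 147.8 TPM in the controls. The means were 140.0 ± 31.1 TPM (SD, n = 6 libraries, 2 per line label) and 146.8 ± 1.36 TPM (SD, n = 2), a ratio of 0.953. The controls lay within the range of the other libraries. By class the ratios were 0.855 for H2A, 0.940 for H1, 0.943 for H4, 0.997 for H3 and 1.01 for H2B. The median log2 fold change was -0.10 for the members and -0.02 for all genes. Below 0 were 24 of 30 members, as were 54.1% of all genes. With 1 library left out, the number ran from 16 of 29 (without line label 87 replicate 3) to 27 of 30 (without line label 79 replicate 1). With no filter it was 44 of 79.

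The member with the lowest P was HIST1H2AG, an H2A gene. The 2 controls gave 4.55 and 4.06 TPM for it and, in the 6 overexpression libraries, from 2.25 to 3.49 TPM, all below the controls. Its log2 fold change was -0.50 (standard error 0.15, unadjusted P = 0.00814, limma adjusted P = 0.532). HIST1H2AM stood at 2.34 and 1.21 TPM in the control libraries and from 0.16 to 1.52 TPM in the others (log2 fold change -0.53, limma adjusted P = 0.889), and the groups overlapped. HIST1H2BJ stood at 4.09 and 4.08 TPM against 2.12 to 4.43 TPM (-0.33, limma adjusted P = 0.8997). HIST4H4, down-regulated under the knockout label, stood at 0.89 and 0.34 TPM in these controls and from 0.36 to 1.47 TPM under the overexpression label, a log2 fold change of 0.28 (limma adjusted P = 0.925). HIST1H4K stood at 4.31 and 5.70 TPM against 2.63 to 5.48 TPM. HIST1H3H, the highest H3 gene here, stood at 1.68 and 1.66 TPM against 0.91 to 2.23 TPM.

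The processing and S phase lists had no call in the overexpression comparison, with medians of -0.04 over 25 genes and -0.05 over 24. SLBP had a log2 fold change of 0.00062 (limma adjusted P = 1.00). Of the replication-independent variants, H2AFJ (1.33) and H2AFY2 (-2.32) passed the unadjusted thresholds, with limma adjusted P of 0.619 and 0.654. RN7SK was the 1 call among 5 tested entries without a poly(A) tail (0.64, limma adjusted P = 0.813). The chaperone, housekeeping and both marker lists had no call. Over all genes 0.767% were called higher and 1.16% lower.

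The spread under the overexpression label lay between the line labels more than within them. The histone sum was 179.8 and 174.1 TPM for line label 79, 137.5 and 131.4 TPM for 87 and 113.8 and 103.4 TPM for 86. The controls, at 145.9 and 147.8 TPM, lay between 79 and 87. Each line label had 1 library in each of the 2 library codes, and the order 79, 87, 86 was the same in both. The line with the most U11 by the RNU11 entry ENSG00000270103, 87, had the middle histone sum. Against the controls, that entry had a log2 fold change of 2.43 under the overexpression label (limma adjusted P = 0.904). The other entry, ENSG00000274978, had 0.51 (limma adjusted P = 0.917), and the lines were not ranked by it.

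A limma F test over the 3 line labels called 12 of 29 members tested, against 15.0% of the 15457 genes tested. Of these, 5 had an adjusted P under 0.05, against 10.0%. The 12 called members were highest in line label 79 except HIST1H2AI, which was highest in 86.

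HIST1H2BK stood at 55.7 and 52.1 TPM in line label 79, at 37.3 and 39.3 TPM in 87 and at 25.9 and 17.6 TPM in 86, with 36.3 and 31.7 TPM in the controls. The largest difference between line means was 1.29 on the log2 scale (limma adjusted P = 0.0216). HIST2H2AA3 stood at 6.75 and 6.65 TPM in 79, at 4.63 and 4.01 TPM in 87 and at 3.10 and 3.48 TPM in 86, a difference of 0.85 (limma adjusted P = 0.0226). HIST3H2A stood at 10.8 and 11.9 TPM in 79, at 8.14 and 8.55 TPM in 87 and at 5.78 and 6.61 TPM in 86, a difference of 0.78 (limma adjusted P = 0.0235). For these 3 genes the 3 line labels did not overlap.

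HIST2H2AA4, the near-identical copy of HIST2H2AA3, had the same order, with a difference of 0.74 (limma adjusted P = 0.0327). HIST1H1C stood at 11.4 and 12.1 TPM in 79, at 8.10 and 6.23 TPM in 86 and at 6.73 and 6.62 TPM in 87, a difference of 0.73 (limma adjusted P = 0.0375), with 86 and 87 overlapping. HIST1H3D (1.12) and HIST1H4H (0.96) had larger differences than most of these, with limma adjusted P of 0.110 and 0.113. HIST1H2BK held 23.2% of the histone sum in the controls, and without it the sum was 124.1 and 122.0 TPM in line label 79, 100.2 and 92.1 TPM in 87 and 87.9 and 85.8 TPM in 86.

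**Figure D5:**
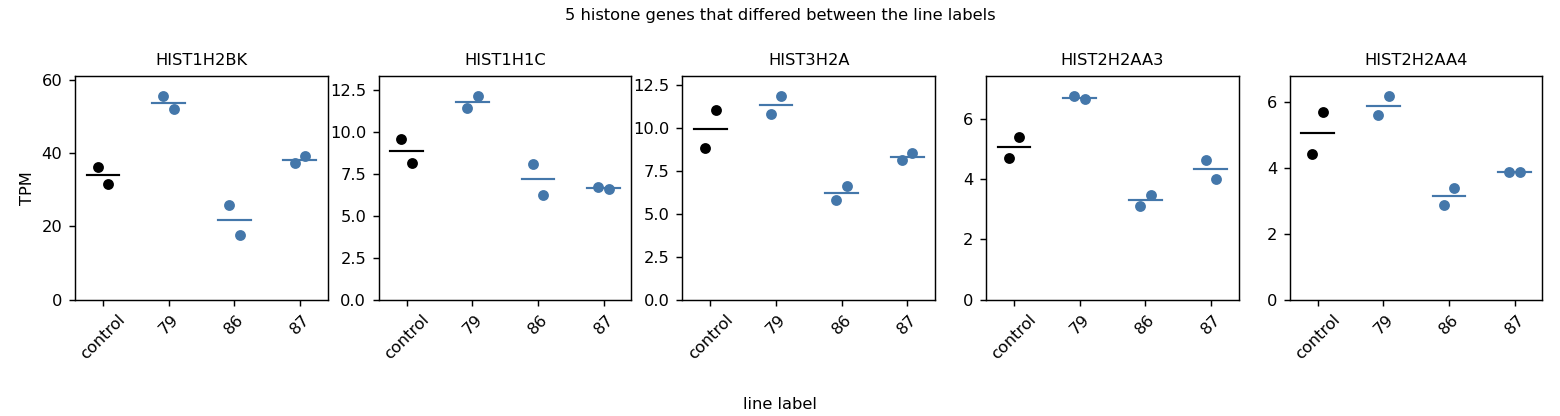
TPM of the 5 histone genes with an adjusted P under 0.05 between line labels, in the 2 controls (black) and the 2 libraries of each line label (blue), with 1 point per library and a bar at the mean. In every panel line label 79 lies above the other labels, and for HIST3H2A and HIST2H2AA4 it overlaps the controls.

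The lists of other genes were read in the same F test. The share called among all genes was 15.0%, as above. None of the 25 processing genes and none of the 13 chaperones was called. Of 24 S phase genes 1 was called, MCM7 (0.73, limma adjusted P = 0.0105), and 1 of 14 housekeeping mRNAs, B2M (0.81). Among the variants H2AFY2 (2.85) and H2AFJ (1.16) were called. None of the 5 tested entries without a poly(A) tail was called. Of 8 urothelial markers 3 were called, GATA3 (0.95), FOXA1 (0.69) and KRT19 (0.62), and of the other cell markers CDH5 (2.65). The summed level of the 12 markers of other cells was 37.5 and 37.4 TPM in line label 79, mostly CDH5, and 6.17 to 10.1 TPM in the other overexpression libraries. Of the other endothelial markers, PECAM1 reached at most 0.30 TPM and VWF at most 0.09 TPM in any library. The relation of CDH5 to the histone values was not tested.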

How the data were processed

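RNA was sequenced from T24 cells in 12 libraries. Per the study's methods, the authors trimmed paired-end reads with fastp, aligned them to hg38 with Hisat2 and quantified each library with Stringtie. The deposited tables of the authors give coverage (signal, the mean aligned depth), FPKM (fragments scaled by length and depth) and TPM (the same with a fixed total). The deposited tables held no read counts, so DESeq2, which the study used, was not run. TPM does not record its counting error, so the precision given here rests on how libraries of one group vary. The aligned bases were derived from the ratio of coverage to FPKM.

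The members and gene lists were chosen with earlier results of these data known. Genes that reached 1 TPM in at least 2 compared libraries entered limma 3.58.1 in R 4.3.3 (mean-variance trend) on log2(TPM + 1), which understates the fold change of low genes. P-values were adjusted by the Benjamini-Hochberg method over all genes tested. Calls needed an unadjusted P under 0.05 with a difference of 1.5-fold or more. The line labels were compared with a moderated F test and the largest difference between line means. Sums over members were not tested. The fits were tested on simulated data.

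Named members were, per class, the highest in each comparison; up to 6 called members per direction and fit by size; the 3 lowest P in both treatment comparisons; the HIST3 and HIST4 members; near-identical copies; 8 processing genes; and up to 3 called genes per direction of each other list. HIST1H2AC, HIST1H2AI, HIST2H2BF, the H2A and H2B pairs, HIST1H2BB and HIST1H2BC, FEN1 and H2AFZ were named after their values were seen. One gene of the S phase list is not reported here.

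Of the 89 members, 82 were found by identifier in GENCODE release 44 on the same chromosome. Stem-loops were read from hg38 and promoters from RefSeq. Python 3.11.15, pandas 2.3.3, scipy 1.17.1, pysam 0.24.0 and matplotlib 3.10.9 were used. Alternatives were a pseudocount of 0.1, FPKM, median ratio scaling, TPM rescaled to genes outside the histones that each hold under 1% of a library, no filter or a stricter one, no trend, adjusted P, no fold threshold, blocks, line means, all 12 libraries and each library left out in turn.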

Additional observations from a re-analysis of the deposited data

Results flagged for a closer look

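Among the libraries under the overexpression label, 5 histone genes differed between the line labels by the F test itself at an adjusted P under 0.05 (limma, 2 libraries per line label). The largest difference between line means on the log2 scale was 1.29 for HIST1H2BK, 0.85 for HIST2H2AA3, 0.78 for HIST3H2A, 0.74 for HIST2H2AA4 and 0.73 for HIST1H1C. Line label 79 was highest for all 5, and 86 was lowest for all but HIST1H1C, for which 87 was lowest. HIST2H2AA3 and HIST2H2AA4 share all of their 100-base windows and are not independent. No library stood apart from the other 5 under the overexpression label by Dixon's test in the 24 sums and genes examined, a test that picks about 1 in 20 groups by chance.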

How the results depend on the processing

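In the knockout comparison 4 members were called. The number was 9 with median ratio scaling and 38 without the fold change threshold, and from 3 to 7 with each library left out in turn (7 without labelled replicate 1, 6 lower and 1 higher). In the library type comparison 67 members were called. The number was 22 with at least 1 TPM in every library, and from 29 to 68 with each library left out. Without either control of the knockout comparison fewer members can pass the filter (30 tested). In the overexpression comparison 1 member was called with a pseudocount of 0.1 (HIST1H2AG), 1 without the fold threshold, and 0 with every library left out. Between line labels the 12 calls became 7 with FPKM, 5 with adjusted P, and from 6 to 12 with each library left out (6 without line label 79 replicate 1 and 7 without its replicate 3).

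Over all genes, calls between the controls were 525 higher and 10540 lower, and 1182 and 1559 with FPKM, 1413 and 1885 with median ratios and 1988 and 1320 with rescaled TPM. In the knockout comparison they were 1236 higher and 452 lower, and 725 and 570 with FPKM, 773 and 775 with median ratios and 1097 and 647 with rescaled TPM. In the overexpression comparison they were 121 and 183, and 64 and 109 with FPKM.

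The ratio of histone sums in the knockout comparison was 0.803 with FPKM and from 0.829 to 0.8996 with each library left out. Between the controls it was 421 with FPKM and 466 with rescaled TPM, and from 215 to 233 with each library left out. Under the overexpression label it was from 0.899 to 1.00 with each library left out, and turned above 1 without line label 86 replicate 3 (1.003). Log2 values changed sign for HIST2H2AA3 in the knockout comparison without control replicate 1 (0.031, range from -0.12), in the overexpression comparison for HIST1H1C without control replicate 1 (0.015, range from -0.19), HIST1H3H without line label 87 replicate 3 (0.038, range from -0.11) and HIST1H2BK without line label 79 replicate 1 (-0.068), its replicate 3 (-0.049) or control replicate 2 (-0.037; highest 0.25 without line label 86 replicate 3), and between the controls for HIST2H2BC with rescaled TPM (0.016). None of these was called in that setting, and the cause was not tested. Of the other values of single members, 120 in the knockout comparison, 143 in the overexpression comparison, 88 between the controls and 149 between line labels kept their direction and side of the thresholds. With the same direction, 2, 0, 5 and 39 lost a call and 3, 2, 0 and 0 gained one.

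Replicate numbers 1 and 2 did not pair the libraries of the knockout comparison (correlation of deviations 0.024 over the genes tested), and the replicate block gave 4 calls, all lower. Blocking by library code, where the 6 correlations ran from 0.070 to 0.150, gave 0 calls in the overexpression comparison and 10 between line labels. Where 1 library was left in a group, it was assumed to vary like the other group. TPM keeps no depth, so no value here has a counting interval.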
